A study of Mus musculus with 20 samples.

Results

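Activity-induced synaptic effector genes are genes whose mRNA rises when neurons fire and whose products act at the synapse, in contrast to the transcription factors of the same response. The 10 studied here were Arc, Homer1, Inhba, Nptx2, Ptgs2, Rgs2, Plk2, Rheb, Nrn1 and Pcsk1. They were chosen by name, with earlier results of these data known and with no threshold on their levels, and were found by Ensembl identifier among 47729 identifiers in a table of read counts, of which 16692 had enough reads to be tested. All 10 were among those tested. The study asked how age and an enriched environment (EE) change gene expression in the hippocampus. All 20 libraries came from the hippocampus of C57BL/6 males. Standard cages housed the young controls of 5 months (5mSC) and the aged controls of 24 months (24mSC), and an enriched environment housed young (5mEE) and aged (24mEE) mice of the same ages, with 5 libraries in every group. Per the study's methods, the aged mice of the enriched group entered a larger cage with running wheels, tubes, platforms and nesting material only late in life, RNA was isolated from each animal separately, and brains were taken after cervical dislocation. The enriched mice of 5 months have labels but no description in the methods. The labels name no transgene and no drug in any group.

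Synaptic activity reaches the nucleus through calcium and the kinases it activates, and the transcription factors CREB and SRF then switch on a first wave of genes within minutes, before any new protein is needed. Part of that wave encodes transcription factors such as Fos and Egr1. Another part, to which Arc, the short form of Homer1, Ptgs2, Rgs2, Plk2 and Nrn1 belong, encodes proteins that change the synapse itself, by removing or clustering glutamate receptors, by releasing signals to neighbouring cells or by damping the receptors that started the response. In the hippocampus these genes are known for their rise after exploration, learning and seizures.

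Promoter sequence is shown first for 4 members, because the cyclic AMP response element (CRE), the site bound by CREB, is the element most often named for this gene class. RefSeq windows on GRCm38.p6, from 250 bases before to 50 bases after a transcription start, were found for 7 of the 10 members, in 8 windows, and not for Arc, Nptx2 and Nrn1. The 250 bases before the start are printed 5′ to 3′ on the plus strand, which is the coding strand of all 4, and capitals mark matches to TGACGTCA (the full CRE), to TGACG (its core, which also lies inside the full CRE) on either strand, and to TATAAA. Homer1 and Inhba are shown because they passed the test between ages, and Plk2 and Pcsk1 because they hold the full CRE.
Homer1, chr13:93303507-93303756: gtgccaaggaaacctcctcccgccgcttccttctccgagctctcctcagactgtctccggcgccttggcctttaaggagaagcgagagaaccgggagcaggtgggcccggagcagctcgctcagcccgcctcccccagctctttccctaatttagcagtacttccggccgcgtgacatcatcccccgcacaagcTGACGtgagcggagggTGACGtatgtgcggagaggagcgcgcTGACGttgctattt
Inhba, chr13:16011601-16011850: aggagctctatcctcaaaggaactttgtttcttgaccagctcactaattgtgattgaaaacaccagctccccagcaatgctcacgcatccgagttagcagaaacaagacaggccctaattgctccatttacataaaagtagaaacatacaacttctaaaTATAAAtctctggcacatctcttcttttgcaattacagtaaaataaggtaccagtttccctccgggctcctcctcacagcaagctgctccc
Plk2, chr13:110394794-110395043: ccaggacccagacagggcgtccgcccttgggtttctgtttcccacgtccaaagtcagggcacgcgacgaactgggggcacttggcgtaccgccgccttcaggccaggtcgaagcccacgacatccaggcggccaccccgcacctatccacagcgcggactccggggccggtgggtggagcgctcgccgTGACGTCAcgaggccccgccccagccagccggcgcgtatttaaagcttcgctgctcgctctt
Pcsk1, chr13:75089607-75089856: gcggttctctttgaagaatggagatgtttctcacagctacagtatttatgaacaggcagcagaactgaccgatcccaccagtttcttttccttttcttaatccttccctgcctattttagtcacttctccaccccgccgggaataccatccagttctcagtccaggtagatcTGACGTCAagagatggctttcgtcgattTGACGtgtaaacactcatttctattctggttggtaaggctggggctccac

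The full CRE lay 62 bases before the start of Plk2 and 78 bases before that of Pcsk1, and 1.79% of the 32851 mouse promoter windows hold it. In the window printed, Homer1 had 3 copies of the core TGACG, 56, 40 and 14 bases before the start, and no full CRE. A second RefSeq window of Homer1, at chr13:93307784-93308083 on the same build, held none of the letters searched. The core was present in 6 of the 8 member windows and in 20.8% of all windows. Those 6 windows held from 49.3% (Pcsk1) to 70.0% (Rgs2 and Rheb) G and C, beside a median of 52.7% over all windows. The match in Ptgs2 lay after the start. The part of base content in these shares was not tested. The window of Inhba held TATAAA 91 bases before the start, as do 13.6% of windows in some position, and none of the CRE letters. No member window held the AP-1 site TGANTCA (7.81% of all windows), the CArG box of SRF (1.63%) or the Egr site GCGTGGGCG (0.612%), each searched on both strands. These are matches of letters in a short window, and nothing about binding is drawn from them.

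Libraries held between 10963348 and 34107138 counted reads, and levels are given as CPM, a gene's reads scaled to the same fixed library size after TMM normalisation. At this depth 3 reads correspond to 0.0882 to 0.329 CPM, below every member's level in every library. Markers of neurons had a mean log2 CPM of 8.38 to 9.35 per library, those of dentate gyrus 4.79 to 5.90, of CA1 5.44 to 6.46 and of CA3 3.78 to 4.46, so the labelled tissue's own markers were expressed in all libraries; those of neocortex (4.03 to 4.78) were expressed too. Replicate 3 of 5mSC stood apart from the rest. Mitochondrial ribosomal RNA took 26.8% of its reads, against 0.883% to 1.82% in the others, and it had the lowest total, the lowest neuronal score and the highest choroid plexus score (3.45, against 0.085 to 2.18). Replicate 1 of 5mSC had the second lowest weight (0.19) when libraries were weighted by their agreement with their group, after replicate 3 (0.0777), against 0.687 to 1.88 in the others. For the members and for the gene and marker lists described with age, values without both are therefore given as well. In whole tissue, a lower level through fewer cells of a type cannot be told apart from less RNA per cell.

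Per kilobase of annotated exon, Nrn1 had the highest level, with a group mean of 87.3 to 105 CPM per kb over the 4 groups. Plk2 followed with 50.1 to 61.3 and Arc with 30.2 to 79.8 CPM per kb. Homer1 (12.7 to 20.8), Rheb (14.01 to 15.6), Nptx2 (10.3 to 16.2) and Rgs2 (10.6 to 12.2) came next, then Ptgs2 (5.71 to 7.88) and Pcsk1 (3.21 to 4.25), and Inhba was lowest with 0.366 to 0.835 CPM per kb. As a ratio of the highest to the lowest group mean, Arc and Inhba varied most and Rheb and Rgs2 least.

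**Figure D1:**
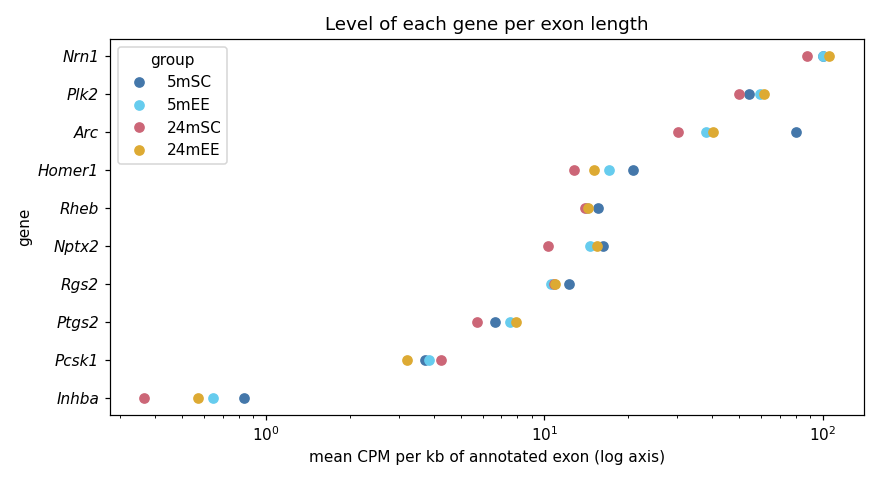
Mean CPM per kb of annotated exon for each gene on a log axis, with 1 point for each of the 4 groups (n = 5 libraries each). Nrn1, Plk2 and Arc lie to the right, Inhba lies furthest to the left, and 24mSC is the lowest group for 8 of the 10 genes.

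Arc (ENSMUSG00000022602, chr15:74669083-74672570, minus strand) encodes a cytoskeletal protein that drives the removal of AMPA receptors from the synapse. Its levels in 5mSC were 293, 420.1, 78.99, 226 and 201 CPM in replicates 1 to 5, and in 5mEE they were 153, 159, 88.02, 75.6 and 107 CPM. In 24mSC they were 74.7, 86.4, 80.3, 141 and 78.96 CPM, and in 24mEE 186, 213, 78.8, 70.7 and 68.9 CPM. Arc was the most uneven member: 4 of the 5 libraries of 5mSC were at 201 CPM or higher, while the replicate that stood apart was at 78.99 CPM, and the 24mEE group split into 2 libraries at 186 and 213 CPM and 3 between 68.9 and 78.8 CPM. The group means were 244 ± 125 (SD, n = 5) in 5mSC, 117 ± 37.7 in 5mEE, 92.3 ± 27.6 in 24mSC and 124 ± 70.2 CPM in 24mEE, and all groups overlapped.

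Homer1 (ENSMUSG00000007617, chr13:93299635-93405129, plus strand) encodes a scaffold that ties group I metabotropic glutamate receptors to their calcium stores. Its short, activity-induced form breaks those ties, and counts per gene cannot tell that form from the long forms among the 12 annotated transcripts. Levels in 5mSC were 209, 288, 196, 307 and 246 CPM and in 5mEE 167, 249, 203, 212 and 195 CPM. Levels in 24mSC were 138, 164, 145, 178 and 137 CPM and in 24mEE 168, 191, 181, 192 and 171 CPM. Every 24mSC library and every 24mEE library lay below every 5mSC library. The 24mEE libraries overlapped those of 24mSC and 5mEE, and the group means ran, from high to low, in the order 5mSC (249 ± 48.4), 5mEE (205 ± 29.7), 24mEE (181 ± 11.3) and 24mSC (152 ± 18.1 CPM).

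Inhba (ENSMUSG00000041324, chr13:16011851-16031621, plus strand) encodes the subunit of activin A, a secreted ligand of the TGF-beta family. It had few reads, 39 to 262 per library. Levels in 5mSC were 1.73, 5.24, 4.602, 7.77 and 7.35 CPM and in 5mEE 3.09, 3.51, 4.38, 4.99 and 4.71 CPM. In 24mSC they were 2.29, 2.02, 2.61, 2.48 and 2.301 CPM and in 24mEE 2.62, 2.97, 4.26, 4.34 and 4.08 CPM. The 24mSC libraries were narrowly grouped and all below those of 24mEE and 5mEE, whereas replicate 1 of 5mSC was the lowest library of the series. Of the 30 pairs of groups that neighbour each other in a member's order of means, that of 24mEE (3.65 ± 0.799) and 24mSC (2.34 ± 0.224 CPM) for Inhba was the only one whose libraries did not overlap. The margin was narrow: the nearest libraries were replicate 1 of 24mEE (2.622 CPM, 71 reads) and replicate 3 of 24mSC (2.605 CPM, 64 reads).

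Nptx2 (ENSMUSG00000059991, chr5:144545902-144557478, plus strand), also called Narp, encodes a secreted pentraxin that clusters AMPA receptors, largely on inhibitory neurons. Levels in 5mSC were 50.96, 48.5, 19.6, 48.6 and 37.6 CPM and in 5mEE 35.7, 32.7, 42.2, 32.1 and 41.6 CPM. In 24mSC they were 20.9, 21.3, 27.8, 33.6 and 26.9 CPM and in 24mEE 40.96, 36.3, 45.4, 31.9 and 41.9 CPM. In 5mSC the replicate that stood apart was the lowest, and 4 of 5 libraries of 24mEE were above all of 24mSC. Nrn1 (ENSMUSG00000039114, chr13:36725361-36735131, minus strand) encodes neuritin, a membrane-anchored protein that promotes the growth of neurites and synapses. Levels in 5mSC were 264, 208, 163, 234 and 257 CPM and in 5mEE 235, 212, 195, 242 and 237 CPM. In 24mSC they were 196, 185, 195, 203 and 203 CPM and in 24mEE 258, 224, 228, 256 and 217 CPM. All 5 libraries of 24mEE were above all 5 of 24mSC. Of the exons of Nrn1, 22.3% overlap Fars2 on the opposite strand and the kit does not mark strand, so reads there cannot be assigned to either gene. Fars2 itself had group means of 21.87 to 22.96 CPM.

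Plk2 (ENSMUSG00000021701, chr13:110395046-110400844, plus strand) encodes a kinase that weakens active synapses by removing the postsynaptic protein SPAR. Levels in 5mSC were 264, 264, 165, 287 and 234 CPM and in 5mEE 231, 258, 269.9, 259.8 and 315 CPM. In 24mSC they were 219, 229, 235, 244 and 198 CPM and in 24mEE 282, 239, 302, 268 and 286 CPM, with 4 of 5 libraries of 24mEE above all of 24mSC. Ptgs2 (ENSMUSG00000032487, chr1:150100031-150108227, plus strand) encodes cyclooxygenase-2, the inducible enzyme of prostaglandin synthesis. Levels in 5mSC were 32.4, 25.8, 27.7, 36.1 and 29.7 CPM and in 5mEE 36.1, 27.98, 32.04, 38.1 and 38.3 CPM. In 24mSC they were 27.3, 19.7, 22.3, 30.2 and 31.3 CPM and in 24mEE 35.9, 26.5, 41.2, 35.3 and 41.7 CPM. Here too 4 of 5 libraries of 24mEE exceeded all of 24mSC, while both groups overlapped with those of 5 months.

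The other 3 members are given by their ranges and group means. Rgs2 (ENSMUSG00000026360, chr1:143999338-144004161, minus strand) encodes a GTPase-activating protein that shortens signalling through G proteins, and its libraries ranged from 32.5 to 51.6 CPM, with group means of 44.3 ± 5.58 in 5mSC, 38.4 ± 3.17 in 5mEE, 39.2 ± 4.24 in 24mSC and 39.7 ± 3.395 CPM in 24mEE. Rheb (ENSMUSG00000028945, chr5:24802823-24842624, minus strand) encodes the small GTPase that activates mTORC1. It ranged from 96.7 to 140 CPM, with means of 120.3 ± 14.4, 109.7 ± 8.11, 108 ± 9.099 and 111 ± 5.34 CPM in the same order of groups. Pcsk1 (ENSMUSG00000021587, chr13:75089826-75134861, plus strand) encodes a convertase that cuts prohormones and neuropeptide precursors in secretory granules. Its libraries ranged from 14.4 to 33.8 CPM, with a coefficient of variation of 38.8% in 5mSC, 28.0% in 5mEE, 13.9% in 24mSC and 23.3% in 24mEE, and it was the only member with its highest mean in 24mSC (23.8 ± 3.31 CPM) and its lowest in 24mEE (18 ± 4.19 CPM).

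**Figure D2:**
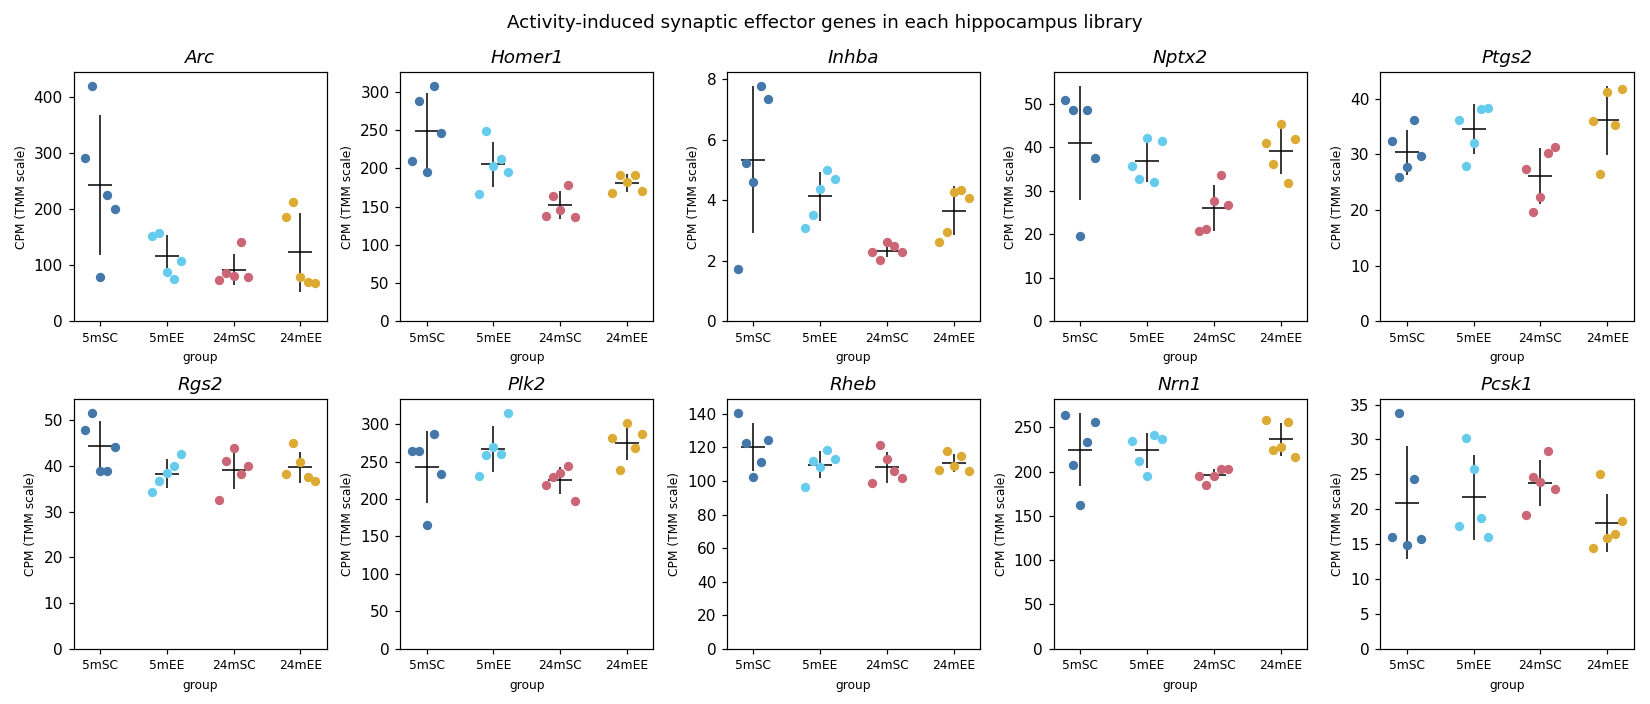
CPM of each gene (linear axis from 0) in the 20 libraries, with points for libraries in order of replicate number and a dash and bar for the mean and SD of each group (n = 5). Homer1 in 24mSC lies below all of 5mSC, Arc splits within 24mEE, and Inhba (by a narrow margin) and Nrn1 in 24mEE lie above all of 24mSC.

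The first comparison asked which members differ between ages in a standard cage. In 24mSC against 5mSC, 9 of the 10 members had a negative log2 fold change, with a median of -0.21 beside -0.011 over all genes tested. The scaffold Homer1 and the ligand subunit Inhba fell and passed the test, and no member passed as higher. Homer1 fell by 0.71 ± 0.121 (SE) on the log2 scale, to 0.611 times the level of 5mSC, with an adjusted p of 0.00864 in edgeR's quasi-likelihood test. Inhba fell by 1.20 ± 0.28, to 0.436 times, with an adjusted p of 0.0446. Both are past the threshold of 0.05 after Benjamini-Hochberg adjustment over 16692 genes, of which 134 (0.803%) passed in either direction and 56 (0.335%) as lower in 24mSC.

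Arc, the member with the greatest fitted difference, had a log2 fold change of -1.40 ± 0.375 (95% interval -2.18 to -0.62) and did not pass (edgeR adjusted p = 0.0648). Nptx2 was at -0.67 ± 0.186 (interval -1.05 to -0.28, edgeR adjusted p = 0.0722). The unadjusted p was under 0.05 for these 4 members, all lower in 24mSC, as for 11.7% of all genes in that direction. The remaining members lay between -0.22 (Ptgs2) and 0.18 (Pcsk1), with Nrn1 at -0.20, Rgs2 at -0.18, Rheb at -0.16 and Plk2 at -0.11. The 95% interval was -0.32 to 0.014 for Rheb and -0.36 to 0.13 for Plk2. Homer1 was the 1 member whose groups did not overlap, as 1.56% of genes were in that direction.

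How many members passed depended on the libraries kept and on the fit. Without replicates 1 and 3 of 5mSC, 4 members passed, as did 2.14% of genes: Homer1 (-0.89), Inhba (-1.55), Arc (-1.62, edgeR adjusted p = 0.026) and Nptx2 (-0.78, edgeR adjusted p = 0.0093). Without replicate 3 alone, Nrn1 (-0.30, edgeR adjusted p = 0.0385) passed in addition, which made 5 members, beside 3.58% of genes. The same 4 members, without Nrn1, passed in DESeq2 (3.85% of genes) and in limma-voom with library weights (1.83%). In a fit of only the 2 groups compared no member passed, with edgeR adjusted p of 0.171 for Homer1 and 0.265 for Inhba, and 0.019% of genes did. Inhba also missed the threshold in 7 of the 10 fits that left out 1 library, those without replicate 4 or 5 of 5mSC or without any single 24mSC library (edgeR adjusted p 0.0567 to 0.109), whereas Homer1 passed in all 10.

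Markers of regions and cells moved beside these differences. Neuron markers had a median log2 fold change of 0.18 (9 of 10 positive), and of 0.044 (8 of 10) without replicates 1 and 3 of 5mSC. Dentate gyrus markers had a median of -0.19 (3 of 10 positive), and of -0.25 (2 of 10) without those replicates. Oligodendrocyte markers had a median of 0.17 (8 of 8 positive), and of 0.064 (5 of 8) without them. Of the 7 choroid plexus markers tested 6 were lower in 24mSC, with a median log2 fold change of -0.85, and their mean log2 CPM ranged from 0.377 to 3.45 in 5mSC and from 0.348 to 1.77 in 24mSC. That direction rested on replicate 3 of 5mSC: without it the scores of 5mSC were 0.377 to 1.02 (mean 0.707, against 0.943 in 24mSC), and in the fit without replicates 1 and 3, in which 8 markers were tested, 7 were higher in 24mSC (median 0.48). Neocortex markers had a median of 0.27 (5 of 8 positive), with a mean log2 CPM of 4.08 to 4.72 in 5mSC and 4.34 to 4.78 in 24mSC, and a median of 0.19 (5 of 8 positive) without replicates 1 and 3 of 5mSC. CA3 markers had a median of -0.32 (0 of 6 positive), and of -0.37 (1 of 6 positive) without those replicates. Striatum markers had a median of 0.13 (6 of 8 positive), and of 0.083 (6 of 8 positive) without those replicates. Their mean log2 CPM was 2.96 to 3.55 (mean 3.14) in 5mSC and 3.47 to 3.74 (mean 3.60) in 24mSC. Among them the dopamine receptor Drd1 was at 0.88 ± 0.235 (edgeR adjusted p = 0.0663), and it passed without replicates 1 and 3 of 5mSC (1.03, edgeR adjusted p = 0.0453). With the neocortex score as a covariate Arc passed (-1.85, edgeR adjusted p = 0.0233) and Inhba did not (-1.08, edgeR adjusted p = 0.17), while Homer1 still passed (-0.82, edgeR adjusted p = 0.0137). All 10 microglia markers were positive (median 0.27, and 0.22 with 9 of 10 positive without those replicates) and Cx3cr1, the fractalkine receptor of microglia, passed (0.54, edgeR adjusted p = 0.0433, and 0.30 with an adjusted p of 0.0188 without replicates 1 and 3 of 5mSC), and their part in the differences of the members was not tested.

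The second comparison asked which members differ with enriched environment in aged mice. In 24mEE against 24mSC, 9 of the 10 members had a positive log2 fold change, with a median of 0.28 beside -0.0017 over all genes, and no member passed edgeR's test. Over all genes that test called 0 (0.0%), with 1037 at an unadjusted p under 0.05, whereas DESeq2 called 23 genes and no member. The 5 members with an unadjusted p under 0.05 were all higher in 24mEE, as were 2.22% of genes. They were Ptgs2 (0.47 ± 0.138), Nptx2 (0.59 ± 0.186), Nrn1 (0.27 ± 0.104), Plk2 (0.29 ± 0.118) and Inhba (0.64 ± 0.281), with edgeR adjusted p between 0.375 for Ptgs2 and 0.715 for Inhba. For each of these 5, and also for Homer1, all 5 libraries of 24mEE were above the mean of 24mSC. The 5 were picked by p on the same libraries, and the share of all genes with such a split was not counted. For Inhba and Nrn1 the groups did not overlap, as for 1.5% of genes in that direction. For Inhba this was by a narrow margin, 2.622 CPM in 24mEE against 2.605 CPM in 24mSC.

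Homer1 (0.25 ± 0.121) had an interval of -0.0059 to 0.50 and Arc (0.42 ± 0.369) one of -0.35 to 1.19. Only 2 of the 5 libraries of 24mEE exceeded the 24mSC mean of Arc, and the other 3 were below it. Rgs2 (0.019, interval -0.17 to 0.21) and Rheb (0.034, interval -0.14 to 0.20) were near 0. Pcsk1 was the member with a negative value, -0.40 ± 0.216 (interval -0.85 to 0.045), and 4 of its 5 libraries in 24mEE were below all of 24mSC.

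Fitted on the 10 libraries of these groups alone, Nptx2 (0.59) and Nrn1 (0.27) passed, each with an edgeR adjusted p of 0.0403, beside 1.17% of 16050 genes. With limma-voom and library weights, Nptx2 (0.57, adjusted p = 0.0227), Nrn1 (0.27, adjusted p = 0.0362) and Plk2 (0.29, adjusted p = 0.0437) passed, beside 2.27% of genes. The fit of 10 libraries leaves out the mice of 5 months, and the weighted fit gives replicates 1 and 3 of 5mSC little weight. In the edgeR fit without those replicates no member passed, beside 0.059% of genes. There Nptx2 was at 0.59 (edgeR adjusted p = 0.0673), Nrn1 at 0.27 (edgeR adjusted p = 0.0933) and Plk2 at 0.29 (edgeR adjusted p = 0.109).

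All 8 neocortex markers were lower in 24mEE than in 24mSC (median -0.30), with a mean log2 CPM of 4.34 to 4.78 in 24mSC and 4.03 to 4.66 in 24mEE, and 8 of 10 dentate gyrus markers were higher (median 0.31), with 4.79 to 5.71 in 24mSC and 5.51 to 5.75 in 24mEE. Striatum markers had a mean log2 CPM of 3.47 to 3.74 (mean 3.60) in 24mSC and 2.90 to 3.47 (mean 3.20) in 24mEE, where 5 of 8 were lower with a median of -0.066. No striatum covariate was fitted, and the part of those markers in the members' differences was not tested. With the neocortex score as a covariate the difference of Ptgs2 was 0.18 in place of 0.47. That of Arc was 1.04 in place of 0.42, and that of Pcsk1 0.016 in place of -0.40. Inhba was at 0.47 in place of 0.64, Nrn1 at 0.21 in place of 0.27 and Plk2 at 0.25 in place of 0.29, whereas Nptx2 stayed at 0.59. In that fit no member passed, and neither did any other gene (0 of 16692). Only the members Arc, Homer1 and Nptx2 had an unadjusted edgeR p under 0.05, and the share of all genes at that level was not counted there. The neocortex score itself differed between the groups (mean 4.551 in 24mSC and 4.174 in 24mEE). The covariate and the environment are therefore not fully separable in that fit. With the dentate gyrus score the difference was 0.36 for Ptgs2, 0.19 for Nrn1, 0.52 for Inhba, 0.31 for Plk2 and 0.60 for Nptx2.

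The third comparison asked the same in young mice. In 5mEE against 5mSC, 7 of the 10 members had a negative log2 fold change, with a median of -0.15 beside -0.021 over all genes, and no member passed. edgeR called 0 genes in all (0.0%) and 2759 had an unadjusted p under 0.05, DESeq2 called 21 genes and no member, and limma-voom called 0. Arc (-1.07 ± 0.371), Homer1 (-0.28 ± 0.121) and Rgs2 (-0.21 ± 0.0923) had an unadjusted edgeR p under 0.05 and were lower in 5mEE, as were 10% of genes. They had edgeR adjusted p of 0.225, 0.264 and 0.275. All 5 libraries of 5mEE were below the mean of 5mSC for each of these 3, and also for Inhba and Rheb. The 3 were picked by p on the same libraries, and the share of all genes with such a split was not counted. Inhba was at -0.38 (interval -0.94 to 0.18), Nptx2 at -0.17 and Rheb at -0.13. Ptgs2 (0.18), Plk2 (0.13) and Pcsk1 (0.044) were positive, and Nrn1 was at -0.0069 (interval -0.22 to 0.21). Without replicates 1 and 3 of 5mSC no member passed either, with Arc at -1.28, Homer1 at -0.45 and Inhba at -0.74. Choroid plexus markers, with a median of -0.086 (3 of 7 positive) in the fit of all libraries, had one of 1.01 (8 of 8 positive) without those replicates, and their part in the members' values was not tested.

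The direct test of whether the enriched environment acted differently at the 2 ages is the interaction, the log2 fold change of enrichment at 24 months minus that at 5 months. It was positive for 9 of the 10 members (median 0.28, beside 0.011 over all genes), and no member and no gene (0.0%) passed in edgeR, while DESeq2 called 2 genes, none of them a member, and limma-voom 0. Arc (1.49 ± 0.523), Homer1 (0.53 ± 0.171), Inhba (1.02 ± 0.388) and Nptx2 (0.76 ± 0.261) had an unadjusted p under 0.05, as did 4.4% of genes in that direction, with an edgeR adjusted p of 0.621 for each. The other members lay between -0.45 (Pcsk1) and 0.28 (Ptgs2). Without replicates 1 and 3 of 5mSC no member passed either, with Arc at 1.70, Homer1 at 0.70, Inhba at 1.37 and Nptx2 at 0.88. A different response of the members to enrichment at the 2 ages was therefore not shown with 5 libraries a group.

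Between the enriched groups the members were closest. In 24mEE against 5mEE their log2 fold changes ran from -0.27 (Pcsk1) to 0.091 (Nptx2). None had an unadjusted edgeR p under 0.05 and none passed, beside 0.108% of genes. Neither DESeq2 (0.209% of genes) nor limma-voom with library weights (0.971% of genes) called a member. The interval was -0.43 to 0.068 for Homer1, -0.74 to 0.38 for Inhba and -0.68 to 0.85 for Arc, which for these 3 genes do not hold the values found between ages in a standard cage. The difference between those values is the interaction above, which did not pass. In the edgeR fit without replicates 1 and 3 of 5mSC, no member passed in 24mEE against 5mEE either, beside 0.572% of genes. In 24mEE against 5mSC no member passed in edgeR, beside 0.168% of genes. Homer1 (-0.47 ± 0.121, edgeR adjusted p = 0.0973) and Arc (-0.98 ± 0.37, edgeR adjusted p = 0.189) had an unadjusted p under 0.05 as lower, as had 11.1% of genes, and the libraries of Homer1 did not overlap, as for 1.12% of genes. Without replicates 1 and 3 of 5mSC, Homer1 (-0.64, edgeR adjusted p = 0.00773) and Inhba (-0.92, edgeR adjusted p = 0.0242) passed, beside 0.502% of genes. Homer1 also passed in DESeq2 (1.83% of genes) and limma-voom (0.425%).

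**Figure D3:**
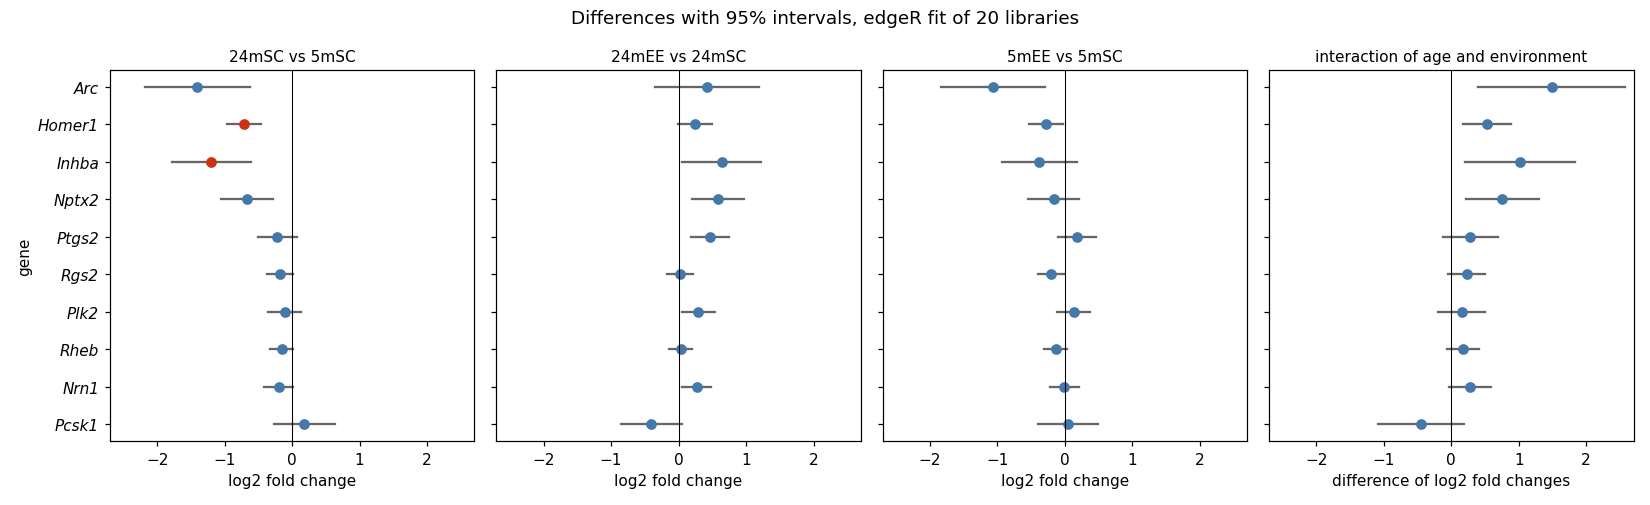
Log2 fold change of each gene with its 95% interval in the edgeR fit of 20 libraries, for age, for enrichment at 24 and at 5 months, and for the difference between those effects. Points of genes that passed at an adjusted p under 0.05 are red and the others blue; the red points are Homer1 and Inhba in 24mSC against 5mSC.

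The comparisons share groups: 24mSC is the control of the enriched aged mice and the aged arm of the age comparison, and 5mSC enters both the age comparison and that of young enriched mice. Side by side, Homer1 was at -0.71 with age and 0.25 with enrichment of aged mice, Inhba at -1.20 and 0.64, Nptx2 at -0.67 and 0.59, and Arc at -1.40 and 0.42. Since a low 24mSC group alone would give opposite signs, no relation between the comparisons is drawn from these values. The 24mSC mean was the lowest of the 4 for 8 members, all but Rgs2 and Pcsk1, and the 5mSC mean was the highest for 6.

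Genes that work with each member mostly did not pass. None of 10 genes of the Homer and metabotropic receptor scaffold passed in the 3 main comparisons, and the smallest p belonged to Grm5, the receptor mGluR5 (0.23 ± 0.0837 in 5mEE against 5mSC, edgeR adjusted p = 0.228). None of 8 AMPA receptor and pentraxin genes did, with Gria4, an AMPA receptor subunit, at 0.40 ± 0.118 with age (edgeR adjusted p = 0.0848). Of 13 activin pathway genes none passed, and Acvr1c, a type I receptor of the family, was at 0.55 ± 0.131 in 5mEE against 5mSC (edgeR adjusted p = 0.223). Of 10 tested prostaglandin genes only Ptgds passed, the prostaglandin D synthase that is also a marker of choroid plexus and leptomeninges. It fell with age by 1.46 ± 0.309 (edgeR adjusted p = 0.0295), with a mean of 349 CPM in 5mSC and 127 CPM in 24mSC, and in the fit of all 20 libraries 6 of 7 choroid plexus markers were lower beside it. In the fit without replicates 1 and 3 of 5mSC, Ptgds was at -1.58 (edgeR adjusted p = 0.0146), while the choroid plexus markers had a positive median, as given above.

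No gene passed among 15 RGS family genes, where Rgs17 was at 0.38 ± 0.11 with age (edgeR adjusted p = 0.075), nor among 8 genes of the Plk family and its SPAR and Rap partners, where the small GTPase Rap1b was at -0.23 ± 0.068 (edgeR adjusted p = 0.0837). None of 11 mTORC1 genes passed, with the kinase Mtor itself at 0.35 ± 0.13 with age (edgeR adjusted p = 0.148). None of 12 genes of prohormones and their processing passed, with the neurotrophin Bdnf at -0.36 ± 0.141 with age (edgeR adjusted p = 0.165). The 8 lists had medians between -0.11 and 0.08 with age, against -0.21 for the members. The 8 medians without replicates 1 and 3 of 5mSC were between -0.11 and 0.15, against -0.24 for the members, and in addition to Ptgds the translation repressor Eif4ebp2 of the mTORC1 list (-0.33 ± 0.0663, edgeR adjusted p = 0.0159) and Bdnf (-0.46 ± 0.088, edgeR adjusted p = 0.0139) passed with age. In that fit Gria4 was at 0.28, Rgs17 at 0.26, Rap1b at -0.18 and Mtor at 0.15 with age, and Grm5 was at 0.13 and Acvr1c at 0.53 in 5mEE against 5mSC, none of which passed.

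Other genes of the activity response were read in the same way. Of 24 further activity-induced genes tested, 20 were negative with age (median -0.40) and 2 passed: Crem, a CRE-binding repressor (-0.48 ± 0.0823, edgeR adjusted p = 0.00864), and Dusp5, a phosphatase of ERK (-0.79 ± 0.163, edgeR adjusted p = 0.0255). Of 19 immediate early transcription factors, 18 were negative with age (median -0.54) and none passed, with Fosb at -0.80 ± 0.21 (edgeR adjusted p = 0.062). Without replicates 1 and 3 of 5mSC, 7 of the 24 passed as lower (median -0.38), among them Crem (-0.49, edgeR adjusted p = 0.0066) and Dusp5 (-0.76, edgeR adjusted p = 0.0165), and so did 3 of the 19 transcription factors (median -0.55), Egr3 (-0.53, edgeR adjusted p = 0.000201), Fosb (-0.91, edgeR adjusted p = 0.012) and Nr4a3 (-0.52, edgeR adjusted p = 0.0394). With enrichment at 24 months the medians of these lists were 0.14 and 0.14, and at 5 months -0.26 and -0.49. All these lists overlap in function with the members, and whether they differ from other genes as groups was not tested.

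Within groups the members were compared pair by pair. After each group's mean was removed, the median Pearson r over the 45 pairs of members was 0.312 over 20 libraries and 0.121 over the 18 without replicates 1 and 3 of 5mSC, where 19 of the 45 pairs were negative. A total of 105 relations were computed over each set of libraries, 45 between members and 60 between a member and a score, each with 100000 within-group permutations and Benjamini-Hochberg adjustment over the 105. Between members 3 passed over 20 libraries, Nptx2 with Plk2 (r = 0.817), Homer1 with Pcsk1 (r = 0.749) and Rgs2 with Rheb (r = 0.726), each with an adjusted permutation p of 0.0397. Spearman's rho was 0.800 (adjusted permutation p = 0.00945), 0.728 (0.0376) and 0.755 (0.0292) for these pairs, and without the 2 libraries farthest from the median r was 0.564, 0.723 and 0.761. Over 18 libraries none passed, with r of 0.553, 0.673 and 0.699.

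The 60 relations to scores covered the immediate early transcription factors, the other activity-induced genes, and markers of dentate gyrus, CA1, neocortex and choroid plexus. Over 20 libraries 4 passed by Pearson's r and 4 by Spearman's rho, and over 18 libraries those of Arc with the 2 activity lists passed by both. Plk2 with CA1 markers had r = 0.847 (adjusted permutation p = 0.0063) and rho = 0.735 (adjusted permutation p = 0.0292) over 20 libraries, r = 0.733 without the 2 libraries farthest from the median, and r = 0.732 (adjusted permutation p = 0.063) over 18. Arc with choroid plexus markers had r = -0.749 (adjusted permutation p = 0.0481) and rho = -0.627 (adjusted permutation p = 0.101) over 20 libraries and r = -0.573 (adjusted permutation p = 0.188) over 18, and r = -0.543 without the 2 farthest of the 20. Ptgs2 with neocortex markers had r = -0.645 (adjusted permutation p = 0.067) and rho = -0.678 (adjusted permutation p = 0.0292) over 20 libraries, r = -0.551 without the 2 farthest, and r = -0.664 (adjusted permutation p = 0.0801) over 18. Arc with neocortex markers had r = 0.614 (adjusted permutation p = 0.124) over 20 libraries and 0.72 (adjusted permutation p = 0.063) over 18.

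Arc varied with both activity lists from library to library. With the other activity-induced genes its r was 0.923 (adjusted permutation p = 0.000525, rho = 0.883 with an adjusted permutation p of 0.0021) over 20 libraries and 0.89 (adjusted permutation p = 0.00367, rho = 0.884 with an adjusted permutation p of 0.0126) over 18, and without the 2 farthest libraries 0.864 and 0.883. Its r with the mean log2 CPM of the immediate early transcription factors was 0.926 (adjusted permutation p = 0.000525, Spearman's rho = 0.856 with an adjusted permutation p of 0.0021) over 20 libraries and 0.915 (adjusted permutation p = 0.00367, rho = 0.860 with an adjusted permutation p of 0.0357) over 18, and without the 2 libraries farthest from the median r was 0.869 and 0.886. Over the 18 libraries Homer1 had an r of 0.289 with that score, Nptx2 of 0.204, Plk2 of -0.174, Nrn1 of -0.297 and Pcsk1 of 0.671, and none of these 5 passed (adjusted permutation p 0.13 to 0.731). The relation of Inhba was negative, with r = -0.772 to the score (adjusted permutation p = 0.0714) and r = -0.811 to Arc (adjusted permutation p = 0.063) over 18 libraries, with rho of -0.789 and -0.792 (adjusted permutation p = 0.0627 for both). Over all 20 libraries r with Arc was -0.36 (adjusted permutation p = 0.494), and neither of these relations of Inhba passed. Without the 2 libraries farthest from the median, replicates 1 and 2 of 24mEE, r with Arc was -0.683. In both enriched groups, replicates 1 and 2 had the highest Arc and the lowest Inhba: 186 and 213 CPM of Arc with 2.62 and 2.97 CPM of Inhba in 24mEE, and 153 and 159 CPM of Arc with 3.09 and 3.51 CPM of Inhba in 5mEE. The standard-cage groups showed this only in part (5mSC) or not at all (24mSC). In 5mSC replicates 1 and 2 also had the highest Arc (293 and 420.1 CPM). Replicate 1 had the lowest Inhba of that group (1.73 CPM), but replicate 2 (5.24 CPM) was above replicate 3 (4.602 CPM). In 24mSC the highest Arc was in replicate 4 and the lowest Inhba in replicate 2. The replicate numbers follow the order of deposition, in which the running numbers of the sample titles also rise within each group. What those running numbers stand for is not stated. Per the study's methods, its mice for RNA were kept in 2 runs at different times. The labels give neither the run of a library, nor its sequencing run, nor the time of death, for a comparison within such units.

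**Figure D4:**
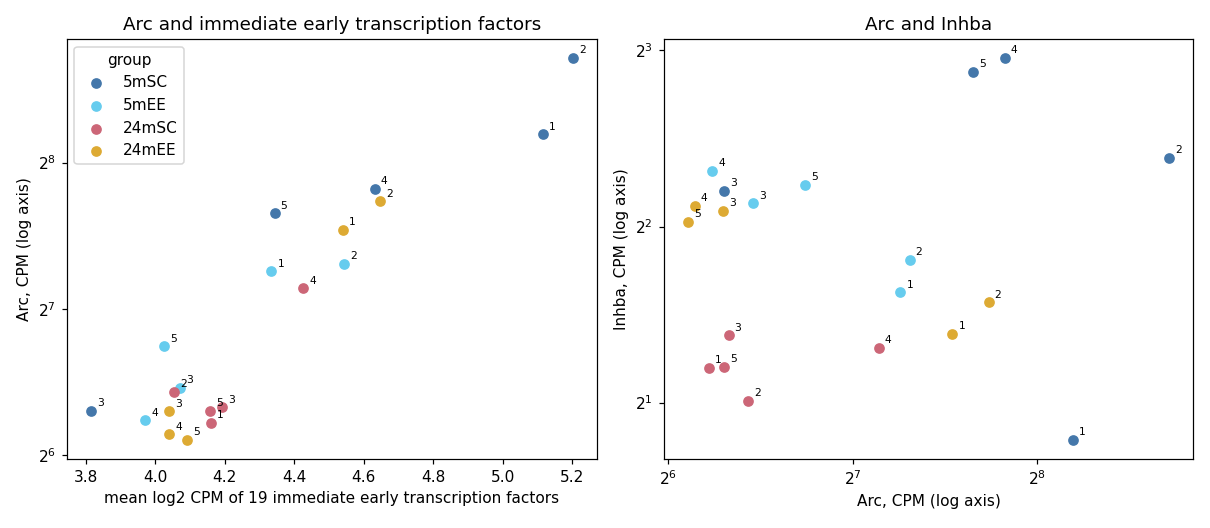
Left, Arc CPM (log axis) against the mean log2 CPM of 19 immediate early transcription factors in each of 20 libraries. Right, Inhba CPM against Arc CPM (both log axes); colours are groups and numbers are replicates, and the enriched libraries 1 and 2 lie to the right of and below the others of their group.

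Of 13135 other genes with a mean log2 CPM of at least 1, those most like the average of the members within groups were Mb21d2 (r = 0.949), Cab39 (0.943), Endod1 (0.942), Ptpn9 (0.936), Nkrf (0.936) and Lrrc8b (0.93) over 20 libraries. Over 18 libraries they were Ext1 (r = 0.857), Vmp1 (0.848), Zkscan6 (0.814), Slc35f6 (0.809), Hhatl (0.799) and Tsc22d1 (0.798), with no gene in both lists of 6. The average itself had an r of 0.795 with the neuronal score over 20 libraries and 0.010 over 18.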

How the data were processed

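The authors deposited whole-number read counts per Ensembl gene for 20 hippocampus libraries, which per the labels used the GRCm38 build, featureCounts 1.4.6-p4, STAR 2.4.1d and bcl2fastq 1.8.2. Libraries came from an unstranded TruSeq RNA v2 kit with single-end reads of 50 nucleotides. The study itself aligned and counted the reads in another way, over more libraries and with sequencing run as a term; the runs are not given in the sources used here. A table of RPKM values was not used, since its sums move with depth. Groups follow the labels; replicate numbers follow the order of deposition and pair no samples.

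The tests used edgeR 4.0.16 (R 4.3.3): filterByExpr (least count 10, least total 15), TMM scaling, 1 quasi-likelihood fit of the 4 groups and Benjamini-Hochberg adjustment over 16692 genes, passed under 0.05. SEs follow from the F statistic. The biological coefficient of variation was 17.4%, and p-values cover the spread between these libraries. Alternatives used DESeq2 1.42.0 size factors and Wald test, limma 3.58.1 with voom and library weights, other filters, covariates for neocortex and dentate gyrus markers, only the groups compared, and libraries left out. No libraries were identical. Relations used log2 CPM (prior count 2) centred within groups. All 10 members were named throughout; of each other list, up to 3 genes past the test or, with none, the gene with the smallest p over the 3 main comparisons. Members and lists were chosen with earlier results of these data known. Gene models came from the GRCm38 annotation, by which 98.9% of identifiers had a symbol, and 222 of 224 listed symbols matched. The fit was also run on simulated counts with the same spread for every gene and no library that stood apart. Those settings differ from these data, and nothing is drawn from that run.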

Additional observations from a re-analysis of the deposited data

Results flagged for a closer look

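Arc in replicate 4 of 24mSC was the 1 value that stood far from the rest of its group. It was 141.2 CPM, while the other 4 libraries of 24mSC lay between 74.68 and 86.38 CPM, and the gap to the nearest of them took 0.824 of the group's range, above Dixon's critical value of 0.71 for 5 samples. Chance alone gives such a value in about 1 of 20 groups, and 40 groups (10 members in 4 groups) were examined. Without this library the log2 fold change of Arc between 24mEE and 24mSC was 0.63 and that between 24mSC and 5mSC was -1.61. The same library had the highest mean log2 CPM of immediate early transcription factors in 24mSC (4.425, against 4.053 to 4.191 in the others) and the highest neocortex score of its group (4.781). Its part in the value of Arc was not tested.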

How the results depend on the processing

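In 24mSC against 5mSC, 2 members passed, beside 0.803% of genes. The number was 4 without replicates 1 and 3 of 5mSC (2.14% of genes), in DESeq2 (3.85%) and in limma-voom with weights (1.83%). It was 1 without the filter on low counts (0.169%) and with the dentate gyrus covariate (0.611%), and 0 in the fit of 2 groups (0.019%). It was 1 to 5 when single libraries were left out, 5 without replicate 3 of 5mSC (3.58%). It stayed at 2 with DESeq2 size factors (0.833%), with the CPM filter (1.05%) and, with Arc in place of Inhba, with the neocortex covariate (0.258%). In 24mEE against 24mSC the number was 0, but 2 in the fit of 2 groups and 3 in limma-voom. In 24mEE against 5mSC it was 0, but 2 without replicates 1 and 3 of 5mSC, 1 in DESeq2 and 1 in limma-voom, and 0 to 1 with single libraries left out (1 without replicate 3 of 5mSC). In the other 3 comparisons it was 0 in every setting run. Genes called over the whole table ranged more widely: for age 3 to 706 over the settings beside the 134 reported.

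Some fitted log2 fold changes changed sign, most of them near 0 and the greatest that of Pcsk1 in 24mEE against 24mSC (-0.40). Pcsk1 turned to -0.10 (neocortex covariate) and -0.033 (without replicates 1 and 3 of 5mSC) with age, to 0.016 with enrichment at 24 months (neocortex covariate), and to -0.17 (without those replicates) and -0.12 (limma-voom) with enrichment at 5 months. Nrn1 was 0.014 in 5mEE against 5mSC without the filter, and Rheb was -0.0047 in 24mEE against 5mEE in limma-voom. With single libraries left out, the range was -0.035 to 0.070 for Rgs2 in 24mEE against 24mSC, -0.11 to 0.051 for Nrn1 and -0.11 to 0.27 for Pcsk1 in 5mEE against 5mSC, -0.20 to 0.24 for Arc and -0.025 to 0.046 for Rheb in 24mEE against 5mEE, and -0.25 to 0.0064 for Nptx2, -0.031 to 0.13 for Nrn1 and -0.37 to 0.0068 for Pcsk1 in 24mEE against 5mSC. Of the member results under alternatives, 1172 kept direction and side of the threshold, 26 changed sign, 20 gained and 12 lost a call. The causes were not tested. No paired analysis was possible because the labels give no pairing.

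Inhba had the fewest reads (39 in its lowest library), so its values carry the most counting error. Counts per gene cannot tell the forms of Homer1 apart, and part of Nrn1 shares reads with Fars2. Sequencing run and time of death are not in the labels and were not terms of any fit.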
